A study of Mus musculus with 2 samples.

Results

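The imprinted genes Peg3, Peg10, Mest, Snrpn, Impact, Plagl1, Grb10, Nnat, Zrsr1 and Sgce were followed in mouse embryonic stem cells before and after prolonged culture. They were taken by their symbols, and all 10 were found among the 32285 genes of the deposited matrices. The cells came from the inbred strain C3H/HeSn-Paf/J, from 9 lines derived separately from XX, XO and XY embryos, with 3 lines of each kind, and the lines were mixed before capture. Time 1 is the mixture of the lines at early passage, and time 2 is the same mixture 10 passages later. Both libraries shared the culture: serum with leukaemia inhibitory factor on gelatin and irradiated mouse embryonic fibroblasts, called feeders, whose strain the labels do not give. Each time point was 1 droplet library with no replicate, and cells were not assigned to lines here. No test between time points was therefore made, and all intervals below are exact 95% intervals. Those of RNA levels cover counting error only. Those of shares of cells cover only the drawing of cells, as if cells were independent. Neither covers the spread between cultures or lines.

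An imprinted gene is transcribed mainly from the copy inherited from one parent, because DNA methylation laid down in the egg or the sperm is kept through the cell divisions of the embryo. Most of the genes described here are expressed from the paternal copy, while Grb10 is expressed from the maternal copy in most tissues and from the paternal copy in neurons. Imprinted genes are known for their roles in growth of the embryo and placenta, and imprints are known to be lost in some embryonic stem cell cultures. In an inbred strain the parental copies do not differ in sequence, so the measurements give the summed RNA of both copies and say nothing about which copy was read.

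Cells were barcodes with at least 18000 unique molecular identifiers (UMIs, each standing for 1 captured RNA molecule), at least 1000 detected genes and at most 10% mitochondrial UMIs, after removal of doublets. This left 23407 cells at time 1 and 25586 at time 2. The libraries shared 2155 barcode sequences, of which 285 had at least 10000 UMIs in both. Pou5f1-positive cells, with at least 10 UMIs of this stem cell factor, made up 22203 cells (94.9%) at time 1 and 24729 cells (96.7%) at time 2, with medians of 44565 and 50739 UMIs. Feeders were cells with fewer Pou5f1 UMIs and a counts-per-million level (CPM, UMIs of a gene scaled to the total of the cell or class) of at least 1000 for the collagens Col1a1, Col1a2 and Col3a1 together, and numbered 146 and 234. Differentiated cells, with at least 10 UMIs of endoderm, mesendoderm, trophoblast or neural markers, numbered 318 and 276. The remaining 740 and 347 cells with little Pou5f1 were left out of the comparisons. Cells near the limits, with 8 to 11 Pou5f1 UMIs, numbered 1148 and 379, those near the collagen limit 35 and 47, and those with 8 to 11 UMIs of differentiation markers 95 and 58.

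All 8 pluripotency markers were above 1 CPM in Pou5f1-positive cells, and in feeders and differentiated cells as well, so that limit does not separate the classes. Their summed level was 7872 CPM at time 1 and 6174 CPM at time 2 in Pou5f1-positive cells, against 452 and 187 CPM in feeders. All 12 fibroblast markers were above 1 CPM in feeders, with sums of 4725 and 3924 CPM, against 40.5 and 35.7 CPM in Pou5f1-positive cells. The collagens of the feeder limit are among the 12 and Pou5f1 is among the 8, so part of these contrasts follows from the limits themselves. The differentiated class was a mixture: macrophage markers summed to 1061 CPM in it at time 1 and 69.2 CPM at time 2, endothelial markers to 49.9 and 320 CPM, and pluripotency markers still to 2018 and 934 CPM. The trophoblast marker Tpbpa was at 0 UMIs in all of these classes.

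RefSeq promoter sequences (build GRCm38.p6) were used for 7 of the 10 genes, as 13 windows. Peg10, Impact and Sgce had none. The 250 bases before the start site are shown for 4 genes: Grb10 and Nnat, whose RNA was lower in cells with more X-linked RNA, and Mest and Plagl1, the genes whose windows hold the 6-base motif TGCCGC, known as the core of the site bound by the imprint-protecting protein ZFP57. Capitals mark CpG dinucleotides, the sites of DNA methylation, and each sequence runs 5′ to 3′ on the strand of the gene. The windows are chr11:12037421-12037670 (minus strand) for Grb10, chr2:157559828-157560077 (plus strand) for Nnat, chr6:30737800-30738049 (plus strand) for Mest and chr10:13090582-13090831 (plus strand) for Plagl1.
Grb10: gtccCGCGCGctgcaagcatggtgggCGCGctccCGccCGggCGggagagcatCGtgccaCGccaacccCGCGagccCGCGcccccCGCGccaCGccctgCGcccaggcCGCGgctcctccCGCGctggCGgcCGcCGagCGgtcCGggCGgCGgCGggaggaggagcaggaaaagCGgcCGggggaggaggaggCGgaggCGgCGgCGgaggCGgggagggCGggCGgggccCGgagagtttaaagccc
Nnat: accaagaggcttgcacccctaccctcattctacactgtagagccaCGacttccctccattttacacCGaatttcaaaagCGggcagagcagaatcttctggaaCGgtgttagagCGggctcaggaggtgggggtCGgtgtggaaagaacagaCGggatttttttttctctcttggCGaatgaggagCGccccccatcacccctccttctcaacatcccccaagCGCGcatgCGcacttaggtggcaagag
Mest: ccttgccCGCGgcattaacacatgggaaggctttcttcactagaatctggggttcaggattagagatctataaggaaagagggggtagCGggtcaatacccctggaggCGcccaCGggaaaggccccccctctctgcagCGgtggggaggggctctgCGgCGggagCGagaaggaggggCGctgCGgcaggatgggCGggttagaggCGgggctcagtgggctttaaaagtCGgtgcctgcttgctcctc
Plagl1: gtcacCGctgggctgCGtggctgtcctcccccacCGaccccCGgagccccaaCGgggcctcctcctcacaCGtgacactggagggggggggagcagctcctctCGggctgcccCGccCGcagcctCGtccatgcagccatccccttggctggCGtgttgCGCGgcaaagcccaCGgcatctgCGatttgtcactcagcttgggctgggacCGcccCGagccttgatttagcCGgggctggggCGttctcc
The Grb10 window shown holds 40 CpG dinucleotides, the Nnat window 12, the Mest window 14 and the Plagl1 window 19. Grb10 has a second window, not shown, with 8 CpG dinucleotides, and Mest 2 others, with 14 and 7. Over the 13 windows of the 7 genes the median was 8, against 6 over all 32851 promoter windows of the same length. TGCCGC, searched on both strands (GCGGCA on the other), occurred in 3 of the 13 windows and in 8.68% of all windows. These 3 were 1 Plagl1 window with 1 match and 2 Mest windows with 2 matches each, which overlap in all but a few bases. A match is a description of the sequence and not a measured site of binding.

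Among proteins that act in the nucleus, Peg3 is a zinc finger protein whose loss reduces growth and maternal care in mice. Its RNA was at 234.5 CPM (233.7 to 235.4) in Pou5f1-positive cells at time 1 and at 202.5 CPM (201.8 to 203.2) at time 2. In differentiated cells it was at 334 CPM at time 1 and 415 CPM at time 2, and in feeders at 45.9 and 47.8 CPM. At both time points the order was thus differentiated cells, Pou5f1-positive cells, feeders, and the 3 intervals did not overlap. The gene lies at chr7:6703892-6730431 on the minus strand (GENCODE M21, GRCm38), and Usp29 starts 146 bases away on the other strand. Usp29, a ubiquitin protease gene of the same imprinted cluster, was at 8.29 and 8.62 CPM in Pou5f1-positive cells.

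Plagl1 encodes a zinc finger transcription factor that restrains cell growth and regulates other imprinted genes (chr10:13060504-13131694, plus strand). It was at 4.26 CPM (4.14 to 4.38) in Pou5f1-positive cells at time 1 and 3.50 CPM (3.40 to 3.60) at time 2, below the minimum of 5 CPM set for calling a change. Feeders held 7.64 CPM (5.96 to 9.63) at time 1, compared with 20.4 CPM (18.1 to 23.0) at time 2. Differentiated cells held 6.68 CPM (5.43 to 8.14) and 10.5 CPM (8.76 to 12.4). Feeders were the highest class at time 2, whereas at time 1 the intervals of feeders and differentiated cells overlapped.

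Snrpn encodes a protein of the spliceosome, the machinery that removes introns, and lies in the cluster related to Prader-Willi syndrome (chr7:59982495-60140219, minus strand). It was at 182.4 CPM (181.6 to 183.2) in Pou5f1-positive cells at time 1 and 178.8 CPM (178.1 to 179.5) at time 2. It was lower in differentiated cells, at 90.1 and 75.9 CPM, and lowest in feeders, at 26.8 and 21.1 CPM. The annotation places Snurf inside Snrpn on the same strand, and Snurf was listed at 0 UMIs in every class. Reads of this shared locus may therefore be split or dropped by the counting, and the Snrpn value stands for what was assigned to that symbol.

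Zrsr1 is an intron-less copy of the X-linked splicing factor gene Zrsr2, and lies within Commd1, a gene of the opposite strand (chr11:22972005-22976496, plus strand). It was at 13.2 CPM (13.03 to 13.46) in Pou5f1-positive cells at time 1 and 13.3 CPM (13.2 to 13.5) at time 2. Differentiated cells held 9.86 and 12.02 CPM, the latter with an interval of 10.2 to 14.1 CPM that overlapped Pou5f1-positive cells. Feeders were lowest, at 4.62 and 6.30 CPM. Since Zrsr2 is a close copy at 115 and 119 CPM in Pou5f1-positive cells, reads could be assigned to either gene, and the Zrsr1 values are uncertain to that extent.

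Among genes of growth signalling, Grb10 encodes an adaptor protein that dampens signalling from insulin and insulin-like growth factor receptors (chr11:11930508-12038683, minus strand). It was at 29.6 CPM (29.3 to 29.9) in Pou5f1-positive cells at time 1 and 24.5 CPM (24.3 to 24.8) at time 2. Differentiated cells held 152 CPM (146 to 159) at time 1, compared with 83.2 CPM (78.2 to 88.5) at time 2, and feeders 74.1 CPM (68.7 to 79.8) and 81.0 CPM (76.3 to 86.0). Pou5f1-positive cells were the lowest class at both time points. Feeders and differentiated cells overlapped at time 2.

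Impact encodes an inhibitor of the stress kinase GCN2 and lies on chromosome 18. It was at 67.9 CPM (67.4 to 68.4) in Pou5f1-positive cells at time 1 and 56.1 CPM (55.7 to 56.5) at time 2. Feeders held 60.2 CPM (55.3 to 65.4) and 87.0 CPM (82.0 to 92.1), and differentiated cells 56.7 CPM (52.9 to 60.7) and 67.4 CPM (62.9 to 72.2). The order of the classes thus changed between time points, and no class differed from Pou5f1-positive cells by 2-fold or more.

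Peg10, a gene derived from a retrotransposon and needed for the placenta, and Sgce, which encodes the cell surface protein epsilon-sarcoglycan, lie head to head on chromosome 6. Peg10 occupies chr6:4747306-4760517 on the plus strand and Sgce chr6:4674350-4747207 on the minus strand, 98 bases apart. In Pou5f1-positive cells Peg10 was at 69.5 CPM (69.0 to 70.0) at time 1, compared with 31.0 CPM (30.7 to 31.3) at time 2. Sgce was at 9.30 CPM (9.12 to 9.48) at time 1, compared with 3.05 CPM (2.96 to 3.14) at time 2. In differentiated cells Peg10 was at 155 and 189 CPM and Sgce at 17.7 and 13.5 CPM. In feeders Peg10 was at 16.9 and 7.80 CPM, below Pou5f1-positive cells, while Sgce was at 13.7 and 12.98 CPM, above them.

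Mest encodes a hydrolase of membranes of the endoplasmic reticulum that is abundant in mesoderm of the embryo (chr6:30723547-30748465, plus strand), and Nnat encodes a small membrane protein, neuronatin, of neurons and endocrine cells (chr2:157560078-157562522, plus strand). Mest was at 41.9 CPM (41.5 to 42.3) in Pou5f1-positive cells at time 1 and 33.1 CPM (32.8 to 33.4) at time 2, and at 158 and 302 CPM in differentiated cells. Nnat was at 14.4 CPM (14.2 to 14.6) and 9.39 CPM (9.24 to 9.55) in Pou5f1-positive cells, and at 39.3 and 41.5 CPM in differentiated cells. Both genes were thus highest in differentiated cells at both time points. Nnat lies wholly within Blcap and the 3′ end of Mest overlaps 912 bases of Copg2, in both cases on the opposite strand. Whether strand was used in counting is not given in the sources used here, so reads of the overlapping parts may belong to either gene.

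**Figure D1:**
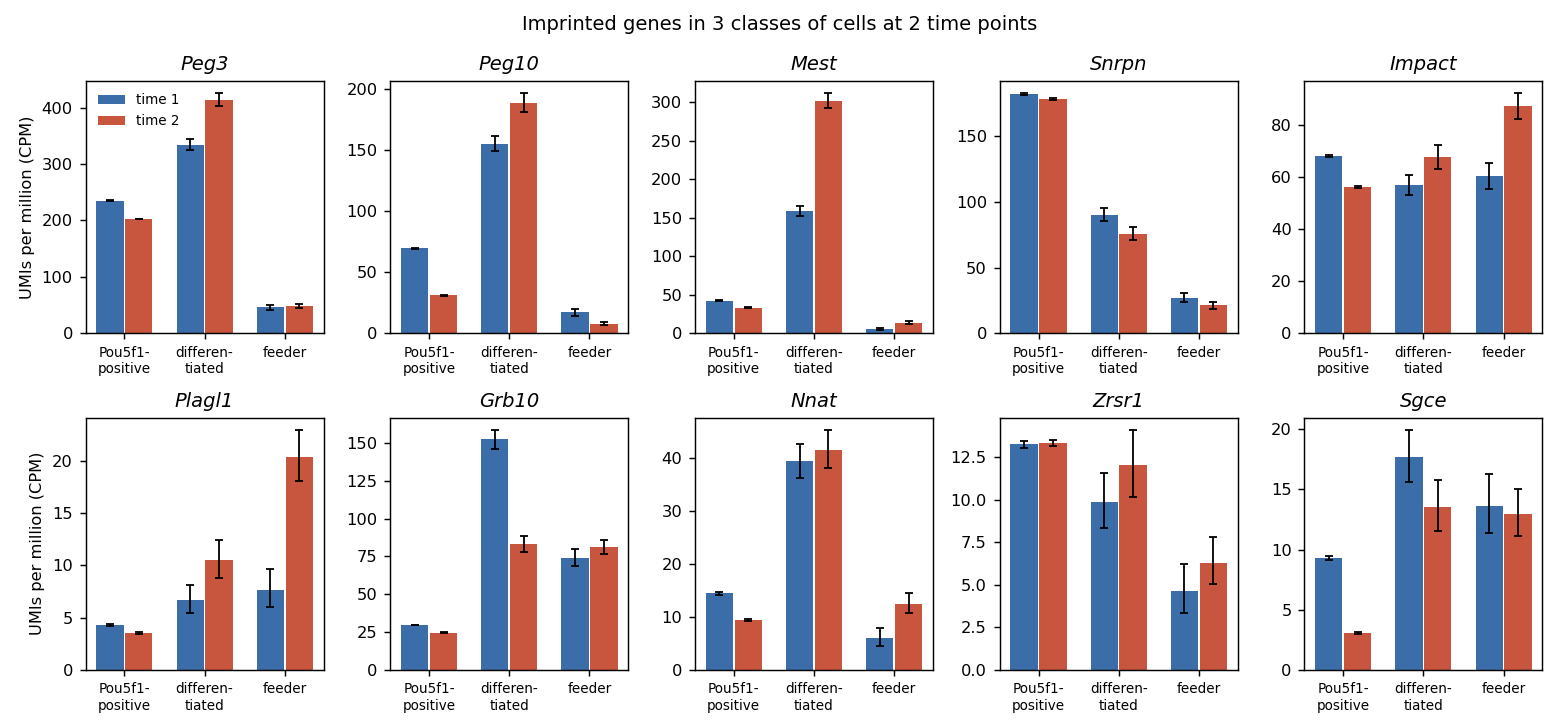
Level of each of the 10 genes, in CPM, in Pou5f1-positive cells, differentiated cells and feeders at time 1 (blue) and time 2 (red). Bars are sums over all cells of a class in 1 library and error bars are exact 95% Poisson intervals, which cover counting error only. Peg10 and Sgce were lower in Pou5f1-positive cells at time 2, and Mest and Nnat were highest in differentiated cells.

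With 10 passages, 2 of the 9 genes above 5 CPM were at least 2-fold lower in Pou5f1-positive cells and 0 were higher. Of all 9390 genes above this minimum, 3.17% were at least 2-fold lower, 1.08% higher and 4.25% either. The 2 genes were the neighbours Sgce, with a log2 ratio of CPM plus 1 of -1.35, and Peg10, with -1.14. Among cells with at least 5 UMIs of markers of the primed state both ratios were under 2-fold. The other log2 ratios were -0.57 for Nnat, -0.33 for Mest, -0.27 for Impact, -0.26 for Grb10, -0.21 for Peg3, -0.03 for Snrpn and 0.01 for Zrsr1. Plagl1, not tested, was at -0.23. Sgce met the minimum of 5 CPM only through time 1, where it was higher, while Peg10 met it at both time points. The median over the 9 genes was -0.27, against -0.05 over all genes tested.

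The 2 lower genes are neighbours in 1 imprinted domain, so they are not independent of each other. Other genes of the same stretch differed less: Casd1, on the far side of Sgce, was at 5.12 CPM at time 1 and 4.47 CPM at time 2, and Ppp1r9a, beyond Peg10, at 16.2 and 16.4 CPM. The median log2 ratio of genes on chromosome 6 was -0.08. Chromosomes 1 and 8 had medians of 0.25 and 0.28 and the X chromosome -0.37, and none of the 10 genes lies on these 3 chromosomes. Scaling to the UMIs of autosomes other than 1, 8 and 14, chosen after the data were seen, also left 2 genes past the limit.

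The mixture of cells also differed between time points, and its part in the passage values over all Pou5f1-positive cells was not tested beyond the values within classes. Among Pou5f1-positive cells without Y-linked UMIs, X dosage was the share of UMIs from 404 X-linked genes relative to 11359 autosomal genes, set to 1 at the median of cells with at least 2 Y-linked UMIs. Cells at 1.2 or more, here called X-high, were 8220 (37.0% of Pou5f1-positive cells) at time 1 and 3000 (12.1%) at time 2. Cells below 1.2, called X-low, were 8990 and 18226, and cells with at least 2 Y-linked UMIs, called Y-positive, 2440 and 2041. Cells with 1 such UMI were in none of these classes. Of the cells without Y-linked UMIs, 2783 and 1950 lay between 1.1 and 1.3, near the limit. These classes are ranges of a score and do not name lines: an X-low cell may come from an XO line or from another line with low X-linked RNA.

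Sgce was lower at time 2 in each of these classes. It was at 10.2 CPM at time 1 and 3.42 CPM at time 2 in X-high cells, at 8.72 and 2.91 CPM in X-low cells and at 8.69 and 3.56 CPM in Y-positive cells. The log2 ratios were -1.34, -1.31 and -1.09, and in each class Sgce met the minimum of 5 CPM only through time 1. Peg10 was at 89.9 and 54.0 CPM in X-high cells, at 55.4 and 27.8 CPM in X-low cells and at 60.4 and 27.5 CPM in Y-positive cells. Its log2 ratios of -0.72, -0.97 and -1.11 show that within X-high or X-low cells alone the difference stayed under 2-fold, while it passed 2-fold in Y-positive cells. With passage, 1 of 10 tested genes was past 2-fold lower in X-high cells, 1 of 9 in X-low and 2 of 9 in Y-positive cells, and 0 were higher. Over all genes, 2.35% were lower, 1.16% higher and 3.52% either in X-high cells, 4.61%, 1.52% and 6.13% in X-low cells, and 2.55%, 1.24% and 3.79% in Y-positive cells.

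Peg3 and Plagl1 went in opposite directions with passage in X-high and X-low cells. Peg3 was at 309 CPM at time 1 and 182 CPM at time 2 in X-high cells (log2 ratio -0.76), and at 193 and 210 CPM in X-low cells (0.12). Plagl1 was at 4.91 and 8.59 CPM in X-high cells (0.70) and at 3.84 and 2.74 CPM in X-low cells (-0.37), where both values were under the minimum of 5 CPM and the ratio was not tested. None of these 4 ratios reached 2-fold. In Y-positive cells Peg3 was at 189.5 and 179.8 CPM (log2 ratio -0.07) and Plagl1 at 4.19 and 2.66 CPM (-0.50).

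**Figure D2:**
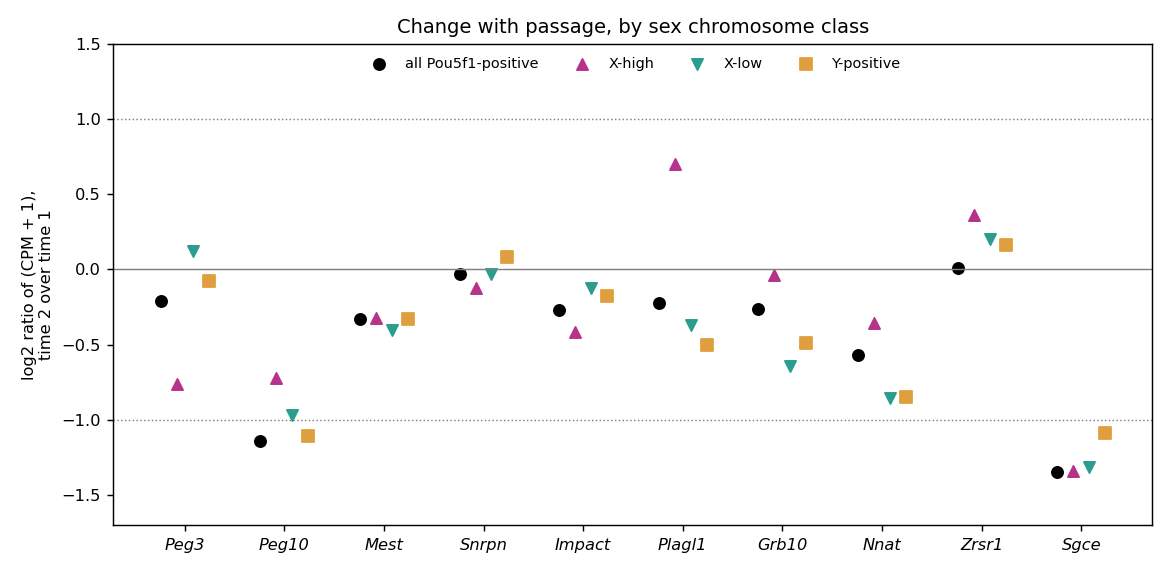
Log2 ratio of CPM plus 1, time 2 over time 1, of the 10 genes in all Pou5f1-positive cells (black circles), X-high cells (purple triangles), X-low cells (green inverted triangles) and Y-positive cells (orange squares). Each point compares 2 libraries with no replicate, and dotted lines mark 2-fold. Sgce lies past 2-fold in all 4 groups, and Peg3 and Plagl1 lie on different sides of 0 in X-high and X-low cells.

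A further difference between the libraries was the share of cells with RNA of the primed state, the state in which stem cells approach differentiation. Cells with at least 5 UMIs of Fgf5, Fgf8, T and Pou3f1 together were 46.2% of Pou5f1-positive cells at time 1 (10249 cells) and 19.05% at time 2 (4710 cells). Grb10 was at 46.9 CPM in such cells and 11.4 CPM in the rest at time 1, and at 41.7 and 19.7 CPM at time 2. In the cells under 5 such UMIs, Grb10 was therefore higher at time 2, with a log2 ratio of 0.74, opposite to the value of -0.26 over all Pou5f1-positive cells. These cells held 6032 X-high and 3873 X-low cells at time 1, and 2873 and 14554 at time 2. Over whole classes Grb10 was not higher at time 2. It was at 9.16 and 8.92 CPM in X-high, 39.4 and 24.9 CPM in X-low and 54.9 and 38.9 CPM in Y-positive cells. The part of this mixture in the value of 0.74 was not tested.

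The passage values of Peg10 and Sgce also depended on which of these cells were taken. With the cells of at least 5 primed UMIs left out, the log2 ratio was -1.34 for Peg10 and -1.56 for Sgce. Within those cells, an alternative added after the data were seen, Peg10 was at 66.9 CPM at time 1, compared with 42.0 CPM at time 2 (-0.66), and Sgce at 9.30 CPM, compared with 5.03 CPM (-0.77). There 0 of 9 tested genes were past 2-fold, where 2.01% of all genes were. Peg3 (0.11), Snrpn (0.26) and Impact (0.13) were above 0 within these cells and below 0 over all Pou5f1-positive cells. Nnat was at -0.21 with primed cells left out and at -0.05 within them, both nearer to 0 than the -0.57 over all Pou5f1-positive cells.

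Nnat, Snrpn and Mest were also higher in cells with primed markers at both time points. Nnat was at 20.9 against 7.54 CPM at time 1 and at 20.2 against 6.39 CPM at time 2. Snrpn was at 217 against 146 CPM and at 259 against 156 CPM, and Mest at 52.4 against 30.9 CPM and at 47.9 against 29.0 CPM. Zrsr1 had the reverse order, with 10.8 against 15.8 CPM and 11.1 against 13.96 CPM. Cells with primed markers also had more UMIs in all, with medians of 48135 against 41169 at time 1 and 55906 against 49782 at time 2, and a limit in UMIs is met more easily by deeper cells.

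Grb10 and Nnat were lower in X-high than in X-low cells of the same library at both time points. Grb10 was at 9.16 CPM (8.88 to 9.46) in X-high cells and 39.4 CPM (38.8 to 40.0) in X-low cells at time 1, and at 8.92 CPM (8.50 to 9.36) and 24.9 CPM (24.6 to 25.2) at time 2. Nnat was at 6.38 CPM (6.13 to 6.62) and 19.2 CPM (18.8 to 19.6) at time 1, and at 4.76 CPM (4.45 to 5.08) and 10.2 CPM (9.97 to 10.4) at time 2. None of these pairs of intervals overlapped. The log2 ratios of X-high over X-low were -1.99 and -1.39 for Grb10 and -1.46 and -0.95 for Nnat.

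At time 1, 2 of 9 tested genes were at least 2-fold lower and 0 higher in X-high cells, against 1.8% lower, 2.59% higher and 4.39% either over 9548 genes. The shares over all genes, here and at time 2, include X-linked genes, whose RNA sets the classes. The shares higher are therefore partly fixed by the class rule. At time 2, 1 gene was lower, Grb10, and 1 was higher, Plagl1, at 8.59 CPM (8.18 to 9.02) in X-high and 2.74 CPM (2.64 to 2.84) in X-low cells. Plagl1 met the minimum of 5 CPM only through X-high cells, where it was higher. The background at time 2 was 0.493% lower, 3.47% higher and 3.96% either over 9135 genes. Under TMM scaling, a scaling by a trimmed mean of ratios, the split at time 2 was 1 higher and 2 lower, with Nnat at -1.05. The median over the tested genes was 0.21 at time 1 and -0.11 at time 2, against -0.03 and 0.02 over all genes tested. The ratio of Plagl1 was 1.36 at time 2 and 0.29 at time 1, where both sums were under 5 CPM, and among cells with at least 5 UMIs of primed markers it was 0.54 at time 2 and -0.33 at time 1. With these cells left out it was 1.49 at time 2 and 1.12 at time 1.

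Grb10 and Nnat remained lower in X-high cells when cells with primed markers were set apart. With cells of at least 5 primed UMIs left out, the log2 ratio of X-high over X-low at time 1 was -1.04 for Grb10 and -1.07 for Nnat, and within cells of at least 5 primed UMIs it was -1.82 and -1.17. At time 2 the values of Grb10 were -1.24 without and -1.04 within such cells, and those of Nnat -0.69 and -0.72. The split within primed cells was added after the data were seen. Summed pluripotency markers were at 10553 CPM in X-high and 6025 CPM in X-low cells at time 1, and at 10381 and 5520 CPM at time 2. Most of this gap was 1 gene, Dppa5a, at 8310 against 3861 CPM and at 7864 against 3309 CPM. Of all 8 markers, 7 had a log2 ratio of X-high over X-low above 0 at time 1 and 6 at time 2. The ratios at times 1 and 2 were 0.67 and 1.25 for Nanog, 0.59 and 0.50 for Sox2, and 0.79 and 0.52 for Esrrb. Pou5f1 was at 0.08 and 0.11. Tdgf1 was at -0.50 and 0.28, Zfp42 at 0.61 and -0.37 and Utf1 at 0.11 and -0.21. A different primed list, of Fgf5, Fgf8, Pou3f1, Otx2 and Lefty2, was summed as well. It was at 337 against 423 CPM at time 1 and at 292 against 198 CPM at time 2. By the list behind the split, cells of at least 5 primed UMIs were 2167 of 8220 X-high and 5138 of 8990 X-low cells at time 1. At time 2 they were 216 of 3000 and 3583 of 18226, so the lists went different ways there. Neural markers were lower in X-high cells as well, at 24.4 against 85.6 CPM at time 1 and 18.9 against 45.3 CPM at time 2, as were mesendoderm markers, at 13.4 against 51.8 CPM and 14.4 against 23.9 CPM. The part of these markers in the Grb10 and Nnat values was not tested. Whether Grb10 and Nnat follow X dosage itself or the state of the cells was not tested.

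The other genes, and Nnat at time 2, differed between X-high and X-low cells by less than 2-fold, though 3 of them passed it at time 2 under some alternatives. Nnat was at -1.08 with a pseudocount of 0.1, -1.05 under TMM scaling, -1.03 without cells with feeder RNA and -1.17 with X dosage limits of 1.5 and 1.2. Zrsr1 was at 1.08 with those X dosage limits, and Peg10 at 1.12 with primed cells left out. Peg10 was higher in X-high cells, with log2 ratios of 0.69 at time 1 and 0.93 at time 2, as was Zrsr1, at 18.2 against 10.2 CPM and at 23.7 against 11.9 CPM (0.78 and 0.94). Zrsr2, the X-linked relative of Zrsr1, had log2 ratios of 0.88 and 0.98 in the same comparison, and the assignment of reads between the copies was not tested. X-linked RNA sets these classes, so a higher value of an X-linked gene in X-high cells follows in part from their definition. Impact was at 0.36 and 0.06, Sgce at 0.21 and 0.18, Mest at -0.23 and -0.16 and Snrpn at -0.02 and -0.11. Peg3 was at 0.68 at time 1 and -0.21 at time 2.

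For these genes, Y-positive cells were close to X-low cells. Of the tested genes, 0 of 9 at time 1 and 0 of 8 at time 2 were 2-fold apart, and over all genes 0.248% and 0.584% were. The largest of these ratios was that of Grb10, at 54.9 CPM in Y-positive and 39.4 CPM in X-low cells at time 1 (0.47) and at 38.9 and 24.9 CPM at time 2 (0.62). Summed fibroblast markers were 79.9 and 86.8 CPM in Y-positive cells, 36.7 and 74.6 CPM in X-high cells and 29.9 and 21.5 CPM in X-low cells. The fibroblast sum of Y-positive cells was 1.69% and 2.21% of that in feeders, where Grb10 was at 74.1 and 81.0 CPM. The part of feeder RNA in the Grb10 values was not tested.

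**Figure D3:**
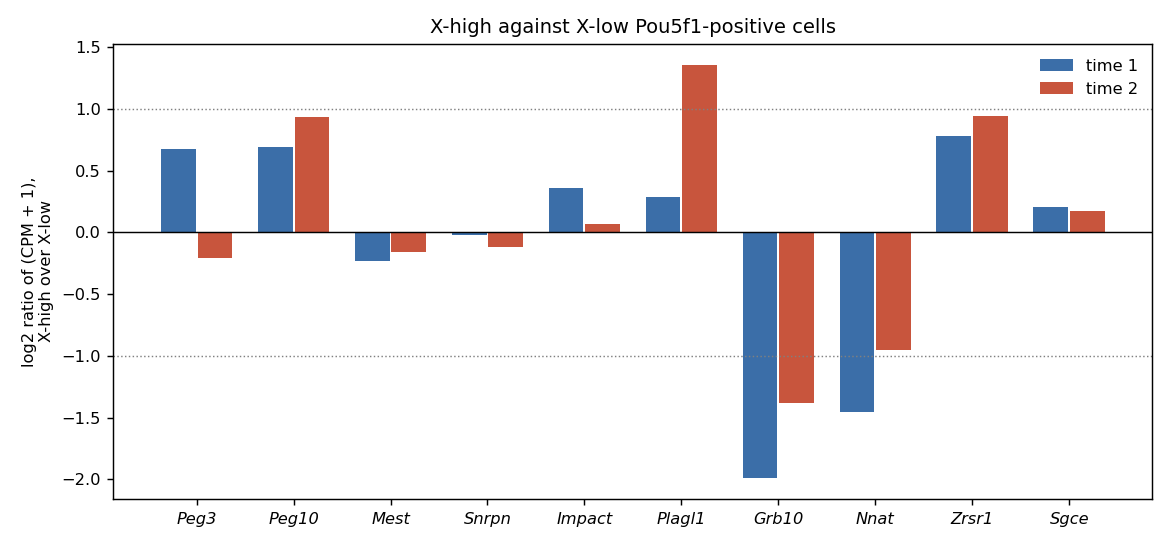
Log2 ratio of CPM plus 1 of X-high over X-low Pou5f1-positive cells for the 10 genes at time 1 (blue) and time 2 (red). Dotted lines mark 2-fold and each bar compares summed UMIs within 1 library. Grb10 and Nnat lie below 0 at both time points, Peg10 and Zrsr1 above 0, and Plagl1 passes 2-fold at time 2.

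The genes differed in how unevenly their UMIs were spread over Pou5f1-positive cells. For this comparison UMIs were drawn at random until each cell had 10000, a depth that all cells reached, and shares with all UMIs follow in brackets. Peg3 had at least 1 UMI in 77.3% of cells (97.3%) at time 1 and 74.5% (97.3%) at time 2, and Snrpn in 78.9% (98.4%) and 78.1% (98.9%). Impact was detected in 46.9% (87.3%) and 40.6% (86.5%) of cells, and Mest in 30.4% (70.5%) and 24.9% (66.4%). Grb10 was detected in 21.1% (48.5%) and 17.6% (45.6%), Nnat in 12.1% (37.4%) and 8.24% (31.0%) and Zrsr1 in 12.1% (42.1%) and 12.6% (47.9%). These shares follow the level and the number of UMIs read, so a cell without a UMI is not shown to lack the RNA. No class here is known to lack these genes. In feeders, with medians of 54244.5 and 50713.5 UMIs, the thinned shares were 34.9% and 24.8% for Peg3, 24.0% and 17.5% for Snrpn and 4.79% and 3.85% for Mest. For Grb10 they were 46.6% and 53.0% and for Impact 38.4% and 50.9%, with 84.9% and 86.3% and 86.3% and 89.7% for all UMIs.

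Peg10 and Sgce had the clearest shift. Peg10 was detected in 41.0% (40.3 to 41.6) of thinned cells at time 1 and in 21.4% (20.9 to 21.9) at time 2, and in 79.7% and 58.1% with all UMIs. In feeders the thinned shares of Peg10 were 13.7% and 6.84% (44.5% and 24.8% with all UMIs). Sgce was detected in 8.57% (8.21 to 8.95) and 3.05% (2.84 to 3.27), and in 32.6% and 14.7% with all UMIs, against 8.90% and 11.97% of thinned feeders (43.2% and 43.6%). Plagl1 was detected in 3.80% and 3.17% of thinned cells.

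**Figure D4:**
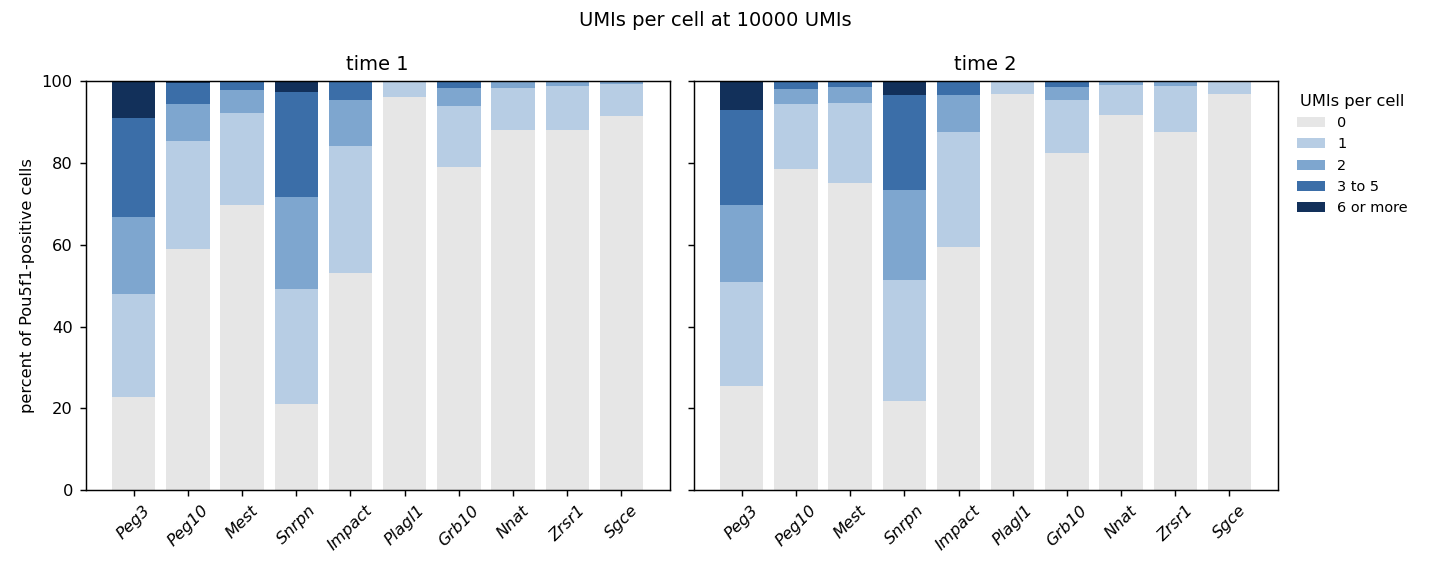
Share of Pou5f1-positive cells with 0, 1, 2, 3 to 5 and 6 or more UMIs of each gene after thinning each cell to 10000 UMIs, at time 1 (left) and time 2 (right). The share of cells without a Peg10 UMI was 59.0% at time 1 and 78.6% at time 2, while that without a Snrpn UMI was 21.1% and 21.9%.

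Peg3 and Snrpn were detected in similar shares of cells but differed in spread. The Fano factor, the variance over the mean, which is 1 where counts vary as by sampling alone, was 2.76 at time 1 and 2.43 at time 2 for Peg3 and 1.37 and 1.51 for Snrpn. At time 1, 9.06% of thinned cells had 6 or more Peg3 UMIs, against 2.77% for Snrpn. Peg10 had Fano factors of 1.76 and 1.86, Grb10 1.54 and 1.56, and Mest 1.43 and 1.78. Zrsr1 was close to sampling, at 1.07 and 1.05, and at so low a level a value near 1 can also hide variation.

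A measure that depends less on level is the excess variance over the squared mean, (variance - mean) / mean squared. Its median over 9212 genes was 0.174 at time 1, and 0.169 over 8719 genes at time 2. It was above the median of all genes for 9 of 9 genes at time 1 and 8 of 8 at time 2, and above the 90th percentile (0.767 and 0.834) for 5 of 9 and 4 of 8. Grb10 was at 1.81 and 2.29, Nnat at 1.70 and 2.88, Peg10 at 1.15 and 2.78, Mest at 1.04 and 2.35 and Peg3 at 0.778 and 0.701. Snrpn, at 0.204 and 0.280, was the most even of the 10 genes at both time points. For Grb10 it was 2.01 within X-high and 1.11 within X-low cells at time 1, and 3.27 and 2.29 at time 2.

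Counts of neighbouring genes were also compared within the same cells. Pearson's r of thinned counts over Pou5f1-positive cells was 0.064 for Peg10 with Sgce at both time points and 0.152 and 0.167 for Peg3 with Usp29, and is given as a description only, since r stays low where few cells hold a UMI of a gene, as for Sgce. Mean Peg10 was 0.873 UMIs in cells with an Sgce UMI and 0.642 in cells without at time 1, and 0.573 and 0.301 at time 2. Mean Peg3 was 3.50 UMIs in cells with a Usp29 UMI and 2.16 in cells without at time 1, and 3.20 and 1.94 at time 2. Peg3 with Peg10, genes of different chromosomes, had r of 0.178 and 0.125. The cells of a library share its depth and its mixture of lines.

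In differentiated cells, 4 of the 10 genes were at least 2-fold above Pou5f1-positive cells and 1 was lower at time 1, against 10.3% higher, 3.56% lower and 13.9% either over all genes. The log2 ratios were 2.33 for Grb10, 1.89 for Mest, 1.39 for Nnat and 1.15 for Peg10, and -1.01 for Snrpn. With primed cells left out those of Grb10 and Nnat were 3.63 and 2.24. At time 2, 7 were higher and 1 lower, against 18.1%, 6.53% and 24.6% either over all genes. Mest had the highest ratio, 3.15, followed by Peg10 at 2.57, Nnat at 2.03, Sgce at 1.84, Grb10 at 1.72, Plagl1 at 1.35 and Peg3 at 1.03, and Snrpn was at -1.23. Sgce and Plagl1 met the minimum of 5 CPM there only through differentiated cells. The medians over the 10 genes were 0.70 and 1.54, against 0.12 and 0.15 over all genes tested. With a Pou5f1 limit of 20 UMIs Plagl1 at time 2 (0.98) and Snrpn at time 2 (-0.62) were under 2-fold. Peg10 at time 1 was under it with that limit (0.93) and under TMM scaling (0.92). Snrpn at time 1 was past 2-fold in 10 of 15 alternatives, and at -0.54 with the Pou5f1 limit of 20 and -0.69 with primed cells left out. Peg3 at time 2 was past it in 12 of 15, and at 0.90 with the Pou5f1 limit of 20 and 0.69 under TMM scaling. Nnat at time 2 was at 1.42 without neural and macrophage cells, an alternative added after the data were seen.

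The higher levels were found in differentiated cells of different marker lists, and a cell may count under more than 1 list. Peg10 was highest in the cells with trophoblast markers, at 314 CPM (294 to 335) in 55 cells at time 1 and 381 CPM (361 to 402) in 62 cells at time 2. In the cells with neural markers it was at 153 CPM at time 1. In the cells with endoderm markers it was at 68.7 and 97.3 CPM, and in those with mesendoderm markers at 54.9 and 100.2 CPM. Peg3 was highest in the cells with mesendoderm markers, at 509 CPM in 92 cells and 590 CPM in 106 cells. Nnat was at 70.9 CPM (63.5 to 79.0) in 90 cells with neural markers at time 1, against 27.7 to 31.8 CPM in the other lists. The neural list was not particular to differentiated cells, where only 2 of its 4 markers reached 1 CPM at time 1. It summed to 149 CPM there and to 59.6 CPM in Pou5f1-positive cells. At time 2 only 33 cells had neural markers, too few for a value here.

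Mest and Grb10 differed between time points within these lists. Mest was at 136 CPM (126 to 147) in cells with endoderm markers at time 1 and 532 CPM (512 to 552) at time 2, and at 175 and 317 CPM in cells with trophoblast markers. In cells with mesendoderm markers Mest went the other way, from 162 CPM (151 to 175) to 122 CPM (112 to 133). Grb10 was at 281 CPM and 100.2 CPM in cells with endoderm markers, at 297 and 89.6 CPM in cells with mesendoderm markers and at 115 and 61.0 CPM in cells with trophoblast markers. Over all differentiated cells the passage ratios were 0.93 for Mest and -0.86 for Grb10, and 0 of 10 genes passed 2-fold, where 1.64% of all genes were higher, 2.64% lower and 4.28% either. With so few cells a change in which cells were caught and a change in RNA per cell cannot be told apart. Mest RNA was also unevenly spread, with 41.5% and 41.3% of thinned differentiated cells holding a UMI (67.9% and 62.0% with all UMIs).

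In feeders, 1 of the 10 genes was at least 2-fold above Pou5f1-positive cells and 6 were below at time 1, and 3 were above and 4 below at time 2. Over all genes 24.8% were above, 24.2% below and 49.1% either at time 1, and 29.4%, 25.2% and 54.6% at time 2, so that a difference of this size between feeders and stem cells was common in general. Grb10 was above in both libraries, with log2 ratios of 1.296 and 1.69, and Plagl1 and Sgce at time 2, with 2.25 and 1.79. With primed cells left out Grb10 was at 2.60 at time 1 and 1.98 at time 2. Snrpn, Peg3, Peg10 and Mest were below in both, with -2.72 and -3.03, -2.33 and -2.06, -1.98 and -1.86, and -2.85 and -1.23. Zrsr1 and Nnat were below at time 1, with -1.34 and -1.13, with Zrsr1 at -0.97 at time 2, and Nnat was at -0.28 with primed cells left out and -0.86 with a Pou5f1 limit of 20 UMIs. Mest and Zrsr1 at time 1 met the minimum of 5 CPM only through Pou5f1-positive cells, and Plagl1 and Sgce at time 2 only through feeders. The medians were -1.24 and -0.30, against -0.05 and 0.04 over all genes.

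Pluripotency markers were not at 0 in feeders. Their sum, most of it Dppa5a, was at 5.74% of its Pou5f1-positive level in feeders at time 1 and at 3.02% at time 2. Single markers ranged from 4.61% (Zfp42) to 13.5% (Esrrb) at time 1 and from 2.61% (Dppa5a) to 7.34% (Esrrb) at time 2. In feeders at time 1 Snrpn was at 14.7% and Mest at 11.8% of their own Pou5f1-positive levels, so Mest lay within the range of the markers and Snrpn close above it. Stem cell RNA in the proportion of the sum would carry 10.5 and 5.41 CPM of Snrpn into feeders, of 26.8 and 21.1 CPM measured. For Peg3 it would carry 13.5 and 6.12 CPM, of 45.9 and 47.8 CPM. For Mest it would carry 2.41 CPM of 4.95 CPM at time 1 and 1.00 of 13.5 CPM at time 2, and for Peg10 3.99 of 16.9 CPM and 0.937 of 7.80 CPM. For Grb10 it would carry 1.70 and 0.741 CPM, of 74.1 and 81.0 CPM. At time 1 Mest had the largest such share of the 10 genes, and at time 2 Snrpn. The part of stem cell RNA in the feeder values was not tested. Barcodes under 1000 UMIs, too few for a cell, had 168 and 79.9 CPM of Peg10 and 238 and 219 CPM of Peg3.

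Mest and Nnat in feeders at time 2 rested on few cells. Mest was at 4.95 CPM (3.62 to 6.60) at time 1, compared with 13.5 CPM (11.6 to 15.6) at time 2, but only 39 of 234 feeders (16.7%) had a Mest UMI at time 2, 1 of them had 115, and the 10% of feeders with most Mest held 91.1% of its UMIs. For Nnat the top 10% held 95.8%, and 30 feeders had a UMI. With a collagen gate of 3000 CPM the log2 ratio of feeders over Pou5f1-positive cells at time 2 was -3.35 for Mest, against -1.23, and -2.19 for Nnat, against 0.37. Plagl1, at 7.64 and 20.4 CPM, was spread more widely, with a UMI in 22.6% of feeders at time 1 and 36.3% at time 2. Between time points, 2 of 10 genes were at least 2-fold higher in feeders, Plagl1 (1.31) and Mest (1.29, above 5 CPM at time 2 alone), and 1 was lower, Peg10 (-1.02), where 1.27% of all genes were higher, 1.8% lower and 3.06% either.

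Neighbours of the 10 genes and other imprinted genes were counted from lists drawn up with them. Of 12 tested neighbours, 2 were at least 2-fold higher with passage in Pou5f1-positive cells and 0 lower, where 1.08% of all genes were higher and 3.17% lower. Both lie beside Grb10: Cobl, an actin nucleator gene, was at 5.71 CPM at time 1 and 22.3 CPM at time 2 (1.80), and Ddc, which encodes an enzyme of dopamine synthesis, at 13.02 and 28.95 CPM (1.095). Snhg14, the long RNA that follows Snrpn, was at 61.4 and 32.4 CPM (-0.90), while Snrpn itself was at -0.03. Of 20 tested imprinted genes outside the list, 4 were lower and 0 higher, against the same 3.17% and 1.08% of all genes. H19 was at 98.7 CPM at time 1 and 17.7 CPM at time 2, Ascl2 at 12.9 and 4.38 CPM, Rian at 73.9 and 31.8 CPM and Mirg at 11.4 and 4.01 CPM. Their log2 ratios were -2.41, -1.37, -1.19 and -1.31, and the median of the 20 was -0.21. Ascl2 and Mirg met the minimum of 5 CPM only through time 1, where they were higher.

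Factors that act on imprints or on DNA methylation were also measured, and the list holds enzymes that add or oxidise methylation as well as proteins that guard it. Of 18 tested, 3 were at least 2-fold higher with passage and 0 lower, against 1.08% and 3.17% of all genes. The 3 were Zfp42 (1.28), a marker of naive stem cells, Khdc3 (1.08), a protein of the egg, and Tet2 (1.011), which oxidises methylated DNA. The median of the 18 was 0.28. Zfp57, which guards imprints, was at 24.9 CPM at time 1 and 46.7 CPM at time 2 (0.88), and its partner Trim28 at 335 and 464 CPM (0.47). Dnmt1, which copies methylation after replication, was at 86.6 and 103 CPM (0.25), and Dnmt3b, which adds new methylation, at 175 and 122 CPM (-0.52). For X-high over X-low cells, 1 of the 18 was past 2-fold higher and 1 lower at time 1. At time 2, 1 was higher and 0 were lower. Over all genes 2.59% were higher and 1.8% lower at time 1, and 3.47% and 0.493% at time 2. The medians of the 18 were 0.15 and -0.01. In this comparison Zfp57 had log2 ratios of 0.80 and 1.03, and Dnmt3b -1.27 and -0.79.

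The genes whose pattern was most like each member were sought by Pearson's r of log2 CPM plus 1 over 10 profiles, the X-high, X-low, Y-positive, differentiated and feeder sums of each library, among 11555 genes. Peg3 was followed most closely by Kif26a (0.987) and by its neighbour Usp29 (0.985), and Snrpn by Utf1 (0.998) and Hspbap1 (0.997). Grb10 was nearest to Fzd2 (0.960) and Mpdz (0.953), Nnat to Syne2 (0.987) and Cdkn1b (0.978), and Mest to Baz1a (0.987) and Cep83 (0.986). Peg10 was nearest to Zfp81 (0.990) and Proser2 (0.985), Sgce to Syt13 (0.986) and Tmem218 (0.985), Plagl1 to Sptlc1 (0.990) and Rabep1 (0.974), and Zrsr1 to Cetn2 (0.983) and Klf8 (0.977). Impact had no close match, with Slc23a2 at 0.873 and Trim47 at 0.849. Profiles of the same library share its depth and its free RNA, and feeders stand apart from the rest for many genes, so r is given as a description.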

How the data were processed

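Single-cell 3′ libraries of 2 time points were analysed. Gene counts per barcode (UMIs) were deposited by the authors as matrices. They were made with Cell Ranger 6.1.2 after bcl2fastq 2.20.0.422 on mm10, per the submitters' processing notes. The gene annotation, strand setting and depth of each pooled line are not given in the sources used here, and cell tags were not used. The libraries held 1735810403 and 1843588321 UMIs over 145288 and 52242 barcodes. Of these, 4449 and 7491 were under 1000 UMIs, so the matrices held few barcodes of low depth. Barcodes with at least 10000 UMIs were scored with Scrublet, whose automatic threshold marked 0%. The limit was instead the score passed by the top 10% of cells with at least 18000 UMIs, and barcodes above it were removed as doublets. This removed 9.84% and 9.64% of cells above 18000 UMIs, and the rule was chosen after seeing that threshold.

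UMIs were summed per library and class and given as CPM with exact Poisson intervals, and shares with Clopper-Pearson intervals. The former cover counting error only, and the latter the drawing of cells as if independent. With 1 library per time point neither covers the spread between replicates. A gene counted as past 2-fold where the log2 ratio of CPM plus 1 reached 1 in size, among genes of at least 5 CPM in either sum. Chromosomes came from GENCODE M21, which matched 32158 genes. Named genes were the 10 chosen, members of the lists past 2-fold or discussed as neighbours, and the 2 most alike in profile. The genes, lists and limits were chosen with earlier results of these data known. Scripts used Python 3.11.15, numpy 2.4.6, scipy 1.17.1, pandas 2.3.3, scanpy 1.11.5 and, for TMM scaling, edgeR 4.0.16 in R 4.3.3, and were tested on simulated data. Alternatives varied the pseudocount, expression minimum, scaling, fold, doublets, limits of each class, depth and primed cells.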

Additional observations from a re-analysis of the deposited data

Results flagged for a closer look

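Peg3 and Plagl1 differed in direction between cell classes, and these differences were not tested, since each class is a sum within 1 library. The log2 ratio of X-high over X-low cells was 0.68 for Peg3 at time 1 and -0.21 at time 2. Within cells with at least 5 UMIs of primed markers it was 0.70 and 0.02, so at time 2 the value there was not below 0. The log2 ratio of time 2 over time 1 was -0.76 for Peg3 in X-high cells and 0.12 in X-low cells. For Plagl1 it was 0.70 in X-high cells and -0.37 in X-low cells, and the latter rests on 3.84 and 2.74 CPM, both under the minimum of 5 CPM set for calling a change.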

How the results depend on the processing

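No paired analysis by line was made because cells were not assigned to lines. Each time point is 1 library, so no replicate could be left out. The count of genes past 2-fold with passage in Pou5f1-positive cells, 2, was 1 of 4 tested with a minimum of 50 CPM (3.46% of all genes), 1 within X-high cells alone, 1 within X-low cells alone and, added after the data were seen, 0 of 9 within cells of 5 or more primed UMIs (2.01%). For X-high over X-low cells the count of 2 was 0 of 4 at both time points with a minimum of 50 CPM (3.09% and 2.91% of all genes) and 5 of 9 at both with a limit of 1.5-fold (12.9% and 12.3%). At time 2 it was 4 of 9 with X dosage limits of 1.5 and 1.2 (5.72%) and 1 of 10 within cells of 5 or more primed UMIs (4.24%), also added later. For feeders the counts of 7 and 7 were 4 of 5 and 3 of 4 with a minimum of 50 CPM (51.9% and 56.5%). For differentiated cells the count of 5 at time 1 was 3 of 10 with a Pou5f1 limit of 20 (9.51%), and the count of 8 at time 2 was 5 of 10 with that limit (20.4%) and 5 of 6 with a minimum of 50 CPM (18.9%). The median share of cells with a UMI over the 10 genes, from a random draw of UMIs separate from that behind the single shares, was 25.7% at time 1, and 38.3% at 18000 UMIs per cell, 59.5% with all UMIs, 25.01% with a Pou5f1 limit of 20 and 19.6% without primed cells. At time 2 it was 19.6%, and 29.1% at 18000 UMIs per cell, 53.0% with all UMIs and 17.6% without primed cells. TMM scaling moved the median of all genes with passage from -0.05 to 0.07, for feeders from -0.05 to -0.33 and from 0.04 to -0.39, and for differentiated cells from 0.12 to -0.12 and from 0.15 to -0.20, so ratios between classes are read against those shifts. Under TMM scaling 3 genes were higher and 1 lower in differentiated cells at time 1, 6 and 1 at time 2, and 3 and 5 in feeders at time 2. No called gene changed direction under an alternative that was run. Genes not called did turn. With passage Snrpn was 0.09 under TMM scaling, 0.10 without primed cells and 0.005 scaled to the chosen autosomes, Zrsr1 -0.16 without primed cells, -0.01 with doublets kept and -0.02 without cells with feeder RNA, and Grb10 0.74 without primed cells. Within X-high, X-low and Y-positive cells Zrsr1 was instead higher at time 2, as given above. For X-high over X-low cells Snrpn was 0.40 at time 1 and 0.03 at time 2 without primed cells, Snrpn 0.04 and Mest 0.05 at time 1 within primed cells, and Impact at time 2 -0.04 under TMM scaling and -0.11 within primed cells. Impact in differentiated cells at time 2 was -0.07 under TMM scaling. In feeders Zrsr1 at time 2 was past 2-fold in 5 alternatives, from -1.32 to -1.03, and Plagl1 at time 1 with a Pou5f1 limit of 5 (1.011). The log2 ratio of Sgce with passage ranged from -1.58 to -0.77 over 17 alternatives, past 2-fold in 16, and that of Peg10 from -1.34 to -0.66, past it in 14. Snrpn in differentiated cells at time 1 was also short of 2-fold with a UMI minimum of 10000 (-0.95), doublets kept (-0.995) and a mitochondrial limit of 20% (-0.998), and Peg3 at time 2 with a higher UMI minimum (0.995).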

Other observations

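Among imprinted genes outside the 10, differentiated cells at time 2 had 10 of 23 tested at least 2-fold above Pou5f1-positive cells and 0 below, where 18.1% of all genes were higher. Igf2, a growth factor gene, had a log2 ratio of 5.38, H19, its long noncoding neighbour, 3.70, Cdkn1c, an inhibitor of the cell cycle, 2.65, and Gnas, a G protein gene, 2.27. At time 1, 6 of 22 were higher and 1 lower, where 10.3% of all genes were higher and 3.56% lower. For X-high over X-low cells, 2 of 20 tested were at least 2-fold higher and 3 lower at time 1. At time 2, 1 of 18 was higher and 1 lower. Over all genes 2.59% were higher and 1.8% lower at time 1, and 3.47% and 0.493% at time 2. In X-high cells Phlda2, a placental growth gene, was lower than in X-low cells at both time points, with log2 ratios of -1.77 and -1.78. H19 was higher in X-high cells at both, with 1.51 and 1.43.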
